A study of Mus musculus with 20 samples.

Results

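Expression of 8 genes of the SNARE fusion machinery, Snap25, Stx1a, Vamp2, Stxbp5, Vamp3, Stx4a, Stx3 and Vamp8, was described in pancreatic islets of mice that lack the P2Y14 receptor and of wild-type mice. The genes were taken by their symbols, and all 8 were found among the 26211 genes of the expression table and passed the filter on low values. Islets are the endocrine cell clusters of the pancreas, and the P2Y14 protein, the product of P2ry14, is a cell surface receptor for nucleotide sugars such as UDP-glucose, which the series title links with insulin release. RNA-seq libraries came from 10 samples of P2Y14-knockout islets and 10 samples of WT islets, all of the strain C57BL/6 x 129S6. Islets of both groups were freed by digestion with an enzyme, picked under a stereomicroscope and cultured overnight. The labels give neither the construction of the knockout allele nor the age of the mice, and they leave unsaid whether the libraries stand for separate animals, so the tests measure the spread between the samples as labelled.

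SNARE proteins drive the fusion of a secretory vesicle with its target membrane. A syntaxin and a SNAP protein on the plasma membrane wind together with a VAMP protein on the vesicle, and the tight bundle that forms pulls the membranes into contact. Insulin granules of beta cells are released chiefly with STX1A, SNAP25 and VAMP2, the set that neurons use for transmitter release. Zymogen granules of the acinar cells, which make digestive enzymes and surround the islets, are released with VAMP8 and VAMP2 and with other syntaxins, STX3 among them. STX3 and VAMP8 are also found in beta cells, as is the broadly expressed STX4, so a transcript alone does not tell its cell of origin.

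The promoters of Vamp8 and Stx4a are shown because the transcripts of these genes varied together across libraries, as described further on. The sequences are from RefSeq on GRCm38.p6 and run from 250 bases before to 50 bases after the start of the gene, 5′ to 3′ on the strand of the gene. Capitals mark CAGCTG, an E-box read by basic helix-loop-helix factors, and GGGCGG, a GC box.
Vamp8, chr6:72390618-72390917, minus strand: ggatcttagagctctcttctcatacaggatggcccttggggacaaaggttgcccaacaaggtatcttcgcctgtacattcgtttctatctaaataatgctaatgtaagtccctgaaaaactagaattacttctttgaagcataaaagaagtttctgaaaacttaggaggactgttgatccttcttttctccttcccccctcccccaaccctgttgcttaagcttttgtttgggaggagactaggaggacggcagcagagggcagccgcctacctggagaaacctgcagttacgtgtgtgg
Stx4a, chr7:127841558-127841857, plus strand: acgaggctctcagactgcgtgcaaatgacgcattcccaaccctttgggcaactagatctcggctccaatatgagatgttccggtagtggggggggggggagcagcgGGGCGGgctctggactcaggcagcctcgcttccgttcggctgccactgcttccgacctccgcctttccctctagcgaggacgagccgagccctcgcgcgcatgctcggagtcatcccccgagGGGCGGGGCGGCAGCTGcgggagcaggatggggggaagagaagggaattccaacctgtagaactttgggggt
The Vamp8 window had a GC content of 46.7% and 5 CpG dinucleotides, and the Stx4a window had 64.3% and 23. On either strand, with overlapping matches counted, the Vamp8 window held neither motif, and the Stx4a window held 1 CAGCTG and 3 GGGCGG. Among 32851 RefSeq windows of 300 bases, CAGCTG was in 16.3% and GGGCGG or its reverse complement CCGCCC in 35.7%, and the median GC content was 52.7%. These matches describe the letters of the windows and no binding was measured. RefSeq windows were matched for 5 of the 8 genes, all but Snap25, Vamp2 and Vamp3, and the matched windows of Stx1a, Stxbp5 and Stx3 are not shown.

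Reads summed over genes ranged from 34520628 to 199847246 in knockout libraries and from 53766074 to 168991840 in WT libraries, with medians of 92323083 in knockout and 105776893 in WT libraries. The 8 genes were covered by 202 to 17592 reads in each library, so counting error was small beside the spread between libraries. The targeted gene P2ry14 averaged 51.2 ± 31.4 in knockout and 151 ± 67.4 in WT libraries (normalized read count, that is reads divided by the authors' size factor for the library; SD, n = 10 each), with overlapping ranges of 0 to 113.5 in knockout and 79.7 to 262.1 in WT libraries. Its log2 fold change was −1.97 (SE 0.59), and its p in limma, a linear model of log2(value + 1) fitted to all genes, was 0.244 after Benjamini-Hochberg adjustment. Ins2, the main mouse insulin gene, took 12.6% to 41.6% of all normalized counts in a library. Acinar RNA was present in every library, with 36 acinar genes holding 4.74% to 22.1% of the reads in knockout and 4.33% to 23.3% in WT libraries. Knockout replicate 6 stood apart in Vamp3, knockout replicate 10 in Stx4a and WT library 20 in Vamp2, and results without these 3 libraries are given at the end.

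None of the 8 genes passed the test between knockout and WT islets. Across the 17482 genes tested with limma, 49 (0.280%) had an adjusted p under 0.05 and 1563 (8.94%) had an unadjusted p under 0.05. Of the 8 genes, 0 passed either threshold. The same held for edgeR's quasi-likelihood test and for DESeq2 on the recovered reads, which called 43 (0.246%) and 137 (0.784%) of all genes. Stx1a crossed the unadjusted threshold under other scalings, with p of 0.0431 for TMM, 0.0438 for quantile normalization and 0.0192 for the total without acinar genes, where Stx4a had 0.0325. The adjusted p of Stx1a lay between 0.458 and 0.555 in these 3 fits, and that of Stx4a was 0.481 (limma). The log2 fold changes of 3 genes were positive and those of 5 were negative, with a median of −0.03, against −0.002 over all genes tested. With TMM or quantile normalization 2 were positive and 6 negative. Scaled to the total without acinar genes, which moved the median of all genes to −0.22, Vamp8 alone was positive and the median of the 8 genes was −0.25. The 2 groups overlapped for all 8 genes, as they did for all but 6 genes (0.0343%) of those tested. In whole islets, a change in the number of cells of a type and a change in RNA per cell cannot be told apart.

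**Figure D1:**
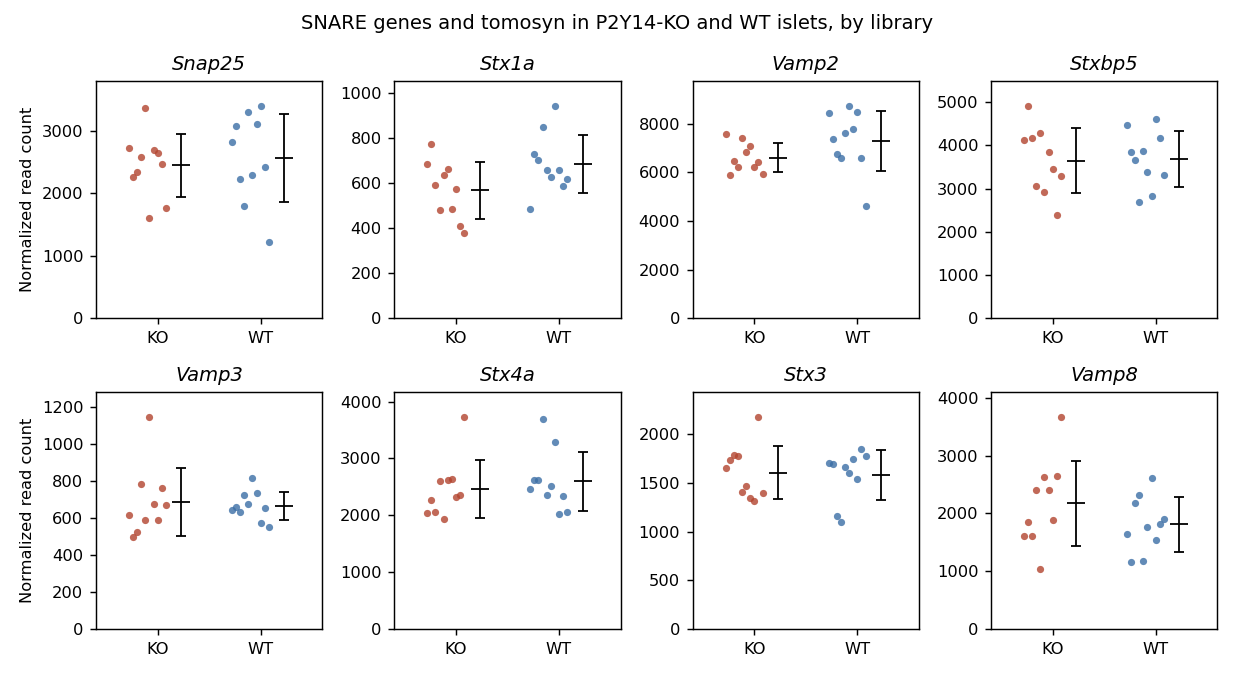
Normalized read count of each of the 8 genes in every library, with knockout libraries (n = 10) left of WT libraries (n = 10) and the mean ± SD in black. The groups overlap in every panel, and Vamp8 has the widest knockout range, 1042 to 3667.

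Among the SNAREs of insulin granule release, Snap25 (ENSMUSG00000027273, chromosome 2), which encodes the plasma membrane partner of syntaxins, had normalized read counts of 1612 at the lowest, 2527 at the median and 3370 at the highest in knockout libraries, against 1229, 2621 and 3393 in WT libraries. The knockout range lay within the WT range. The means were 2448 ± 500 in knockout and 2569 ± 702 in WT libraries (SD, n = 10 each), and the log2 fold change was −0.04 with an SE of 0.17 (limma, adjusted p = 0.962). Stx1a (ENSMUSG00000007207, chromosome 5) encodes syntaxin-1A, a plasma membrane SNARE of regulated secretion. Its lowest, median and highest normalized read counts were 378, 582 and 773 in knockout libraries, against 487, 658 and 941 in WT libraries. Of the knockout libraries, 8 of 10 lay below the WT mean and 4 lay below the lowest WT library, while the others lay among the WT libraries. The means were 568 ± 127 in knockout and 686 ± 131 in WT libraries (SD, n = 10 each), with a log2 fold change of −0.28 (SE 0.14), an unadjusted p of 0.0517 and an adjusted p of 0.566 (limma). This was the largest difference among the 8 genes, and the 95% interval of the fold change ran from 0.675 to 1.00.

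Vamp2 (ENSMUSG00000020894, chromosome 11), the vesicle SNARE of insulin granules, had the highest counts of the 8 genes. Its lowest, median and highest normalized read counts were 5899, 6433 and 7598 in knockout libraries, against 4604, 7502 and 8716 in WT libraries. All knockout libraries lay within the WT range, and 8 of 10 lay below the WT mean. The means were 6608 ± 600 in knockout and 7300 ± 1226 in WT libraries (SD, n = 10 each), and the log2 fold change was −0.13 with an SE of 0.10 (limma, adjusted p = 0.729). The coefficient of variation was 9.08% over knockout and 16.8% over WT libraries, and 1 WT library at 4604 stood apart from the others.

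Stxbp5 (ENSMUSG00000019790, chromosome 10) encodes tomosyn, a soluble protein with a VAMP-like SNARE motif that occupies syntaxin and SNAP25 and so restrains fusion. It had 2400, 3648 and 4904 normalized read counts at the lowest, the median and the highest in knockout libraries, against 2691, 3750 and 4602 in WT libraries. The knockout range enclosed the WT range. The means were 3648 ± 753 in knockout and 3683 ± 641 in WT libraries (SD, n = 10 each), and the log2 fold change was −0.02 with an SE of 0.13 (limma, adjusted p = 0.972).

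Of the SNAREs with a broad tissue range, Vamp3 (ENSMUSG00000028955, chromosome 4), the cellubrevin of recycling endosomes, had 499, 646 and 1146 normalized read counts at the lowest, the median and the highest in knockout libraries, against 554, 657 and 815 in WT libraries. The medians were close, and the highest knockout library stood apart from the others. The means were 687 ± 186 in knockout and 666 ± 77.5 in WT libraries (SD, n = 10 each), and the log2 fold change was 0.01 with an SE of 0.13 (limma, adjusted p = 0.988). Its sign turned with TMM or quantile normalization. Transcripts of Vamp3 share stretches of at least 100 bases at 90% identity or more with 991 other genes, the longest being 309 bases, so its counts are less certain than those of the others. Stx4a (ENSMUSG00000030805, chromosome 7), the mouse symbol of syntaxin-4, a plasma membrane syntaxin of many tissues, had 1937, 2344 and 3727 normalized read counts in knockout libraries, in the same order, against 2022, 2485 and 3700 in WT libraries. The ranges were alike. The means were 2457 ± 513 in knockout and 2598 ± 523 in WT libraries (SD, n = 10 each), and the log2 fold change was −0.08 with an SE of 0.12 (limma, adjusted p = 0.872).

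Of the SNAREs known from acinar secretion, Stx3 (ENSMUSG00000041488, chromosome 19), a syntaxin of apical membranes and of granules, had 1315, 1562 and 2177 normalized read counts at the lowest, the median and the highest in knockout libraries, against 1103, 1676 and 1853 in WT libraries. The knockout median lay below the WT median although the knockout mean lay above the WT mean. The means were 1606 ± 272 in knockout and 1584 ± 254 in WT libraries (SD, n = 10 each), and the log2 fold change was 0.02 with an SE of 0.11 (limma, adjusted p = 0.969). Vamp8 (ENSMUSG00000050732, chromosome 6) encodes endobrevin, which mouse acinar cells need for regulated enzyme release. It had 1042, 2147 and 3667 normalized read counts at the lowest, the median and the highest in knockout libraries, against 1154, 1790 and 2614 in WT libraries. Of the knockout libraries, 3 lay above the highest WT library and 1 lay below the lowest. The means were 2175 ± 736 in knockout and 1809 ± 470 in WT libraries (SD, n = 10 each), and the log2 fold change was 0.23 with an SE of 0.19 (limma, adjusted p = 0.742). Vamp8 had the largest coefficient of variation of the 8 genes among knockout libraries, 33.9%, and its 26.0% among WT libraries was second to the 27.3% of Snap25.

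**Figure D2:**
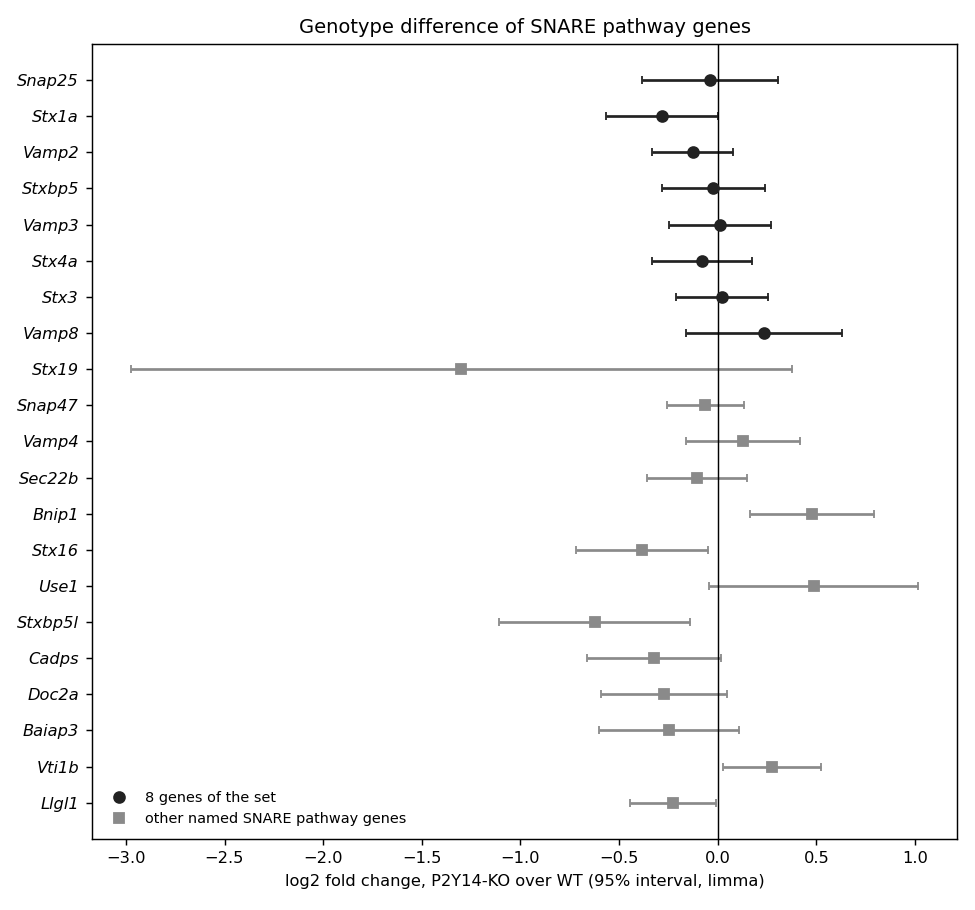
Log2 fold change of knockout over WT islets with the 95% interval from limma (10 against 10 libraries), for the 8 genes as circles and for other named genes as squares. The intervals of all 8 genes include 0, with Stx1a lowest at −0.28 and Vamp8 highest at 0.23.

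Levels were compared between genes per kilobase of exon. Over the 20 libraries, normalized read counts per kilobase of all annotated exons averaged 1826 for Vamp2, 1069 for Stx4a, 862 for Vamp8, 369 for Snap25, 279 for Stx3, 235 for Stx1a, 234 for Vamp3 and 222 for Stxbp5. Vamp2 was above Stx4a in 19 of 20 libraries and Stx4a above Vamp8 in 17. The lower ranks were close, since Stx1a exceeded Vamp3 in 12 of 20 libraries and Vamp3 exceeded Stxbp5 in 8. The order depended on the length taken. Per kilobase of the longest coding transcript, Snap25 at 1186 stood above Vamp8 at 959, in 15 of 20 libraries, whereas per kilobase of all exons Vamp8 was above Snap25 in 19 of 20. Vamp2 was highest by both lengths, at 3154 per kilobase of the longest coding transcript.

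Ratios within a library set each acinar or broadly expressed gene beside the gene of the insulin granule set that fills the same role, and they do not depend on how the libraries were scaled. They were not adjusted for the gene-length index described further on, which Vamp8 followed. The ratio of Vamp8 to Vamp2 had a median of 0.326 (0.141 to 0.620) in knockout libraries and 0.236 (0.154 to 0.413) in WT libraries. The log2 ratio was higher by 0.36 (SE 0.25) in knockout libraries, of which 8 of 10 were above the WT mean, but a two-sided permutation test gave p = 0.162 and an adjusted p of 0.319 over the 4 ratios. The Stx3 to Stx1a ratio had a median of 2.59 in knockout and 2.43 in WT libraries, with a log2 difference of 0.30 (SE 0.19, permutation p = 0.132, adjusted p = 0.319). For Stx4a to Stx1a the medians were 4.00 in knockout and 3.66 in WT libraries, with a log2 difference of 0.20 (permutation p = 0.311, adjusted p = 0.319). The log2 ratio of Vamp3 to Vamp2 averaged −3.30 ± 0.35 in knockout and −3.44 ± 0.24 in WT libraries (SD, n = 10 each), a difference of 0.14 (permutation p = 0.319, adjusted p = 0.319). All 4 mean differences were above 0 but within the spread between libraries. The ratios share Vamp2 or Stx1a and so are not independent of each other, and Vamp2 serves zymogen granules too. The levels of Vamp2, Snap25 and Stx1a had r of 0.08, −0.15 and −0.19 with the summed endocrine markers over the 20 libraries (permutation p = 0.748, 0.52 and 0.417 before adjustment). That sum is mostly Ins2, as given further on, so these r are close to those with a single gene. Without 1 library, the mean log2 difference lay between 0.07 (without knockout replicate 10) and 0.27 for Stx4a to Stx1a, and between 0.06 (without knockout replicate 6) and 0.18 for Vamp3 to Vamp2.

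**Figure D3:**
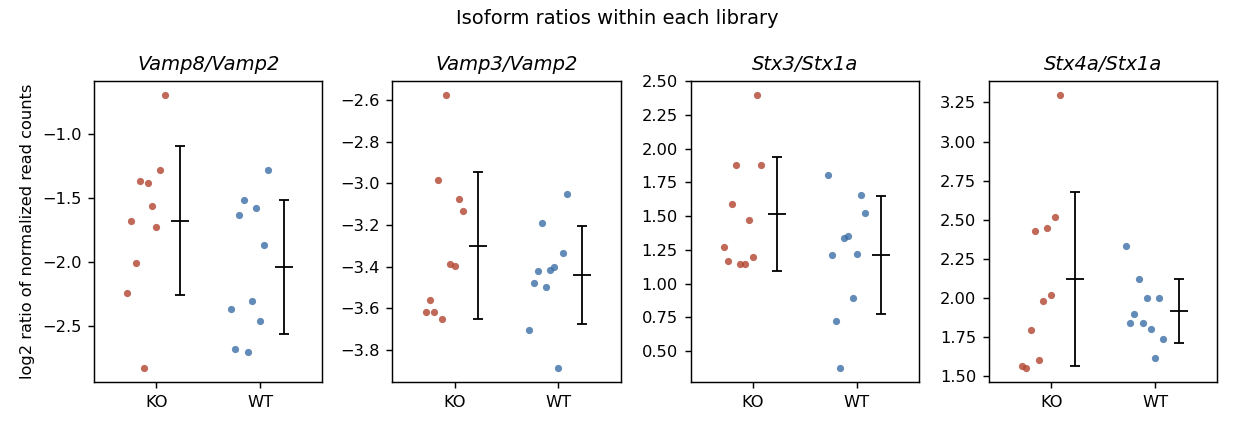
Log2 ratio of each acinar or broadly expressed SNARE gene to a gene of the insulin granule set in every library, with knockout libraries (n = 10) left of WT libraries (n = 10) and the mean ± SD in black. The groups overlap for all 4 ratios, and the largest mean difference, 0.36, is that of Vamp8 to Vamp2.

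Vamp8 was higher in libraries with more acinar RNA. Over the 20 libraries its log2 level had a Pearson r of 0.66 with the acinar share of reads, also taken on the log2 scale (permutation p = 0.00151, adjusted p = 0.0121 over the 8 genes) and a Spearman rho of 0.54 (permutation p = 0.0161, adjusted p = 0.127). Within the genotypes, r was 0.61 in knockout and 0.82 in WT libraries. Without knockout replicate 5 and WT library 12, the libraries farthest from the median share, r was 0.43 (adjusted p = 0.206), so the call rests on those libraries. Normalization to the total without acinar genes gave r = 0.12 (adjusted p = 0.621) and so no call. That scaling lowered r for all 8 genes, since it divides all genes of a library by the same factor, and so does not test Vamp8 alone.

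The other 7 genes did not pass this test on the deposited scale. With the total without acinar genes all 7 had a negative r with an adjusted p under 0.05. That scaling lowers r for the whole set, so these are not read as calls, as given at the end. Stx4a had r = 0.46 and rho = 0.46 with the acinar share, and r was 0.60 in knockout and 0.32 in WT libraries (pooled permutation adjusted p = 0.127 for each). Snap25 had the opposite sign, r = −0.45 and rho = −0.45, with −0.80 in knockout and −0.24 in WT libraries (pooled permutation adjusted p = 0.127 for each). Stx3, although known from acinar cells, had r = −0.38 and rho = −0.35 (permutation adjusted p = 0.19 and 0.255). Without the same 2 libraries, r was 0.50 for Stx4a, −0.29 for Snap25 and −0.58 for Stx3. For Stxbp5, Vamp2, Vamp3 and Stx1a, r lay between −0.17 and 0.11. The acinar share itself averaged 14.2 ± 6.09% in knockout and 15.0 ± 6.65% in WT libraries (SD, n = 10 each; permutation p = 0.762).

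Libraries differed in the balance of short and long transcripts. The balance was expressed as a gene-length index, the mean centred log2 value of short genes (exon length up to 2997 bases) minus that of long genes (from 7223 bases) among 11350 protein-coding genes, without the 8 genes and the other listed genes. The index averaged 0.10 ± 0.39 in knockout and −0.10 ± 0.32 in WT libraries (SD, n = 10 each; permutation p = 0.24). It was examined after the values had been seen, along with 6 marker lists, giving 56 relations in 1 family. By exon length Vamp8 (2311 bases), Stx4a (2364), Stx1a (2666) and Vamp3 (2889) belong to the short class and Stxbp5 (16513) to the long class, so a positive r for the first 4 and a negative r for Stxbp5 follow from how the index is built. Their r is therefore described against that of the other genes of the class, without a test. These relations still count in the family of 56. Those of Vamp8, Stxbp5 and Stx4a had among its smallest p, which lowers the adjusted p of the marker lists. Over short genes the median r with the index was 0.46, and 82.8% of 2838 genes had a positive r.

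Vamp8 had r = 0.89 and rho = 0.90 with the index, 0.96 in knockout and 0.77 in WT libraries, and 3.07% of short genes had an r at least as high. Without knockout replicates 5 and 10 it had r = 0.83. Stx4a had r = 0.73 and rho = 0.66, with 0.87 in knockout and 0.75 in WT libraries, and 19.2% of short genes were at least as high, so it was not far from its class. Vamp3 had r = 0.51, close to the class median, with 44.6% of short genes at least as high. Stx1a differed from most short genes, with r = −0.28, and 6.98% of short genes had an r at least as low. Stxbp5 had r = −0.80 and rho = −0.85, −0.75 in knockout and −0.91 in WT libraries, and 16.9% of 2838 long genes had an r at least as low, the class median being −0.52. For Snap25, Vamp2 and Stx3, whose lengths lie between the classes, r was −0.50, −0.33 and −0.28, with permutation adjusted p of 0.0899, 0.267 and 0.317. The acinar share and the index were themselves related (r = 0.51, rho = 0.46, permutation p = 0.0222 and 0.0428), and r between them was 0.34 without knockout replicates 5 and 10. With the index as a covariate in the limma fit, the log2 fold change of Vamp8 was 0.02 in place of 0.23, and that of Stx4a was −0.20 (unadjusted p = 0.0236, adjusted p = 0.468) in place of −0.08. What sets the index in these libraries was not tested.

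**Figure D4:**
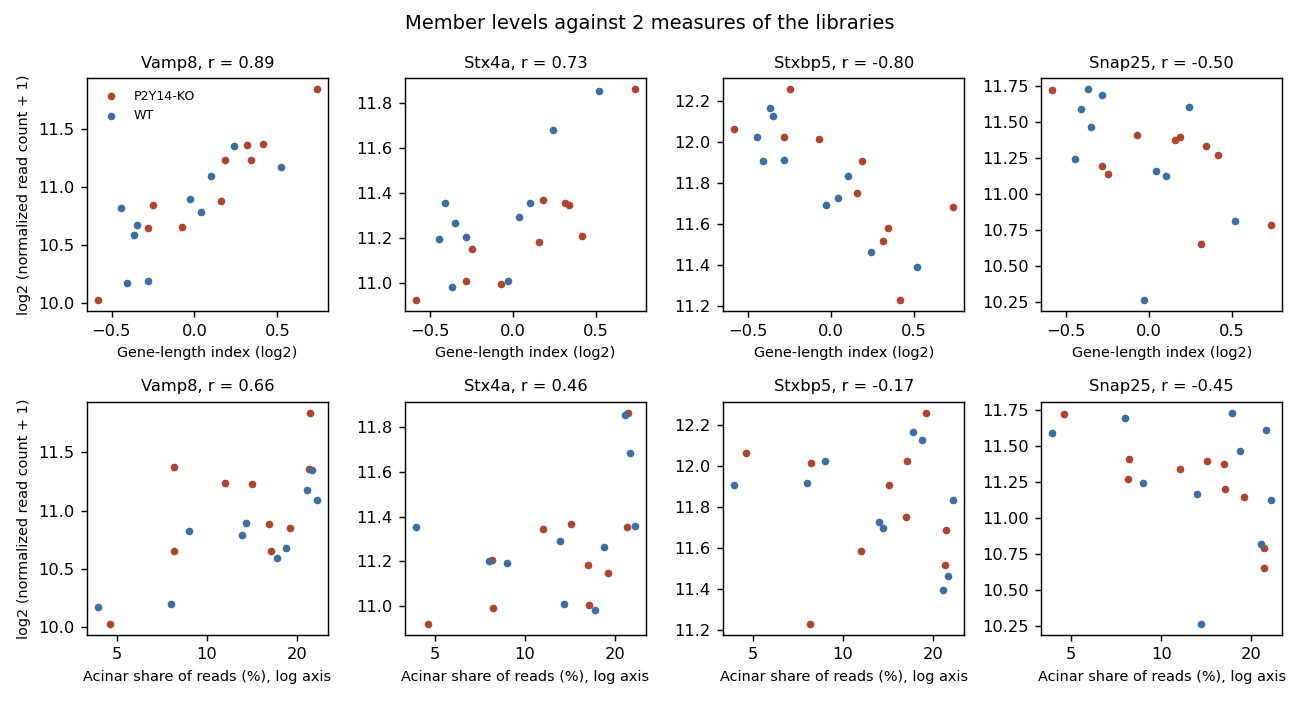
Log2 level of Vamp8, Stx4a, Stxbp5 and Snap25 in each library against the gene-length index (top row) and against the acinar share of reads in percent on a log axis (bottom row), with knockout and WT libraries marked. Vamp8, a short gene, climbs with the index (r = 0.89) and Stxbp5, a long gene, declines with it (r = −0.80), in both genotypes.

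Marker lists of other cell types also moved with some of the genes. Here and in the next paragraph, adjusted p come from the family that holds the index relations. For r, those of 0.0299 and above are not read as calls, because the index relations lower them. Vamp8 had r = 0.62 with the summed macrophage and dendritic cell markers (rho = 0.66, permutation adjusted p = 0.0299 and 0.0183) and r = 0.60 with the duct markers (rho = 0.64, permutation adjusted p = 0.0367 and 0.0189). Stx4a had r = 0.59 with the macrophage list (permutation adjusted p = 0.0408; rho = 0.46, adjusted p = 0.139), and Stxbp5 had −0.69 (rho = −0.72, permutation adjusted p = 0.0101 and 0.00627). The summed macrophage markers ranged from 6342 to 26147 in knockout and from 5498 to 24144 in WT libraries. Of their log2 fold changes, 14 of 19 were positive, with 0 called and 3 higher at an unadjusted p under 0.05 (limma). The summed duct markers ranged from 25653 to 78529 in knockout and from 19422 to 63793 in WT libraries, with 9 of 11 positive and 0 called. The acinar list had 31 of 36 positive and 0 called. The endocrine list leaned the other way, with 12 of 18 negative, a median of −0.12, 0 called and 3 lower at an unadjusted p under 0.05. Over all genes tested, 8.94% had an unadjusted p under 0.05 in either direction (limma). Scaled to the total without acinar genes, 12 of 19 macrophage markers, 3 of 11 duct markers, 13 of 36 acinar markers and 0 of 18 endocrine markers were positive. Without the 2 libraries farthest from the median of the list, r was 0.60 and 0.50 for Vamp8 with the macrophage and duct lists, 0.52 for Stx4a and −0.74 for Stxbp5 with the macrophage list. No listed marker was at 0 in every library, and the part of these cells in the levels of the 8 genes was not tested.

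Stxbp5 and Vamp3 went in opposite directions with the endocrine list, at r = −0.68 (rho = −0.72, permutation adjusted p = 0.0101 and 0.0056) and r = 0.57 (rho = 0.75, permutation adjusted p = 0.046 and 0.0056). Ins2 alone made up 77.0% to 91.3% of that list's sum, so the sum is close to the level of a single gene. Without knockout replicate 2 and WT library 11, r was −0.56 for Stxbp5 and 0.52 for Vamp3. Stxbp5 also had r = −0.57 with the mesenchymal list (rho = −0.65, permutation adjusted p = 0.0487 and 0.0189), which was −0.48 without WT libraries 14 and 19. Vamp3 had r = −0.66 with the Schwann cell and neuron list (rho = −0.49, permutation adjusted p = 0.0367 and 0.111), which was −0.38 without knockout replicate 6 and WT library 12 and so rests on those libraries.

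Among the 8 genes, levels centred on each genotype's mean formed pairs that moved together. Of 28 pairs, Snap25 and Vamp2, both of the insulin granule set, had r = 0.74 and rho = 0.64 over the 20 libraries (permutation adjusted p = 0.022 and 0.0252), and r was 0.62 without knockout replicate 6 and WT library 20. Within the genotypes it was 0.47 in knockout and 0.83 in WT libraries. Stx4a and Vamp8 had r = 0.73 and rho = 0.75 (permutation adjusted p = 0.0196 and 0.00686), with 0.90 in knockout and 0.53 in WT libraries, and 0.64 without knockout replicate 10 and WT library 14. Vamp3 and Stx4a passed by rho alone, at rho = 0.69 and r = 0.45 (permutation adjusted p = 0.0101 and 0.217). The other 4 pairs that passed by r were negative. Stxbp5 was low where Vamp3 (r = −0.65), Vamp8 (r = −0.64) and Stx4a (r = −0.58) were high, with permutation adjusted p of 0.0237, 0.0237 and 0.0494 and rho of −0.71, −0.74 and −0.64. Snap25 and Vamp8 had r = −0.54 and rho = −0.56 (permutation adjusted p = 0.0494 and 0.046). Without the 2 farthest libraries, r of these 4 pairs lay between −0.68 and −0.59. The pairs share libraries and, as given above, several of the genes follow the same gene-length index.

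**Figure D5:**
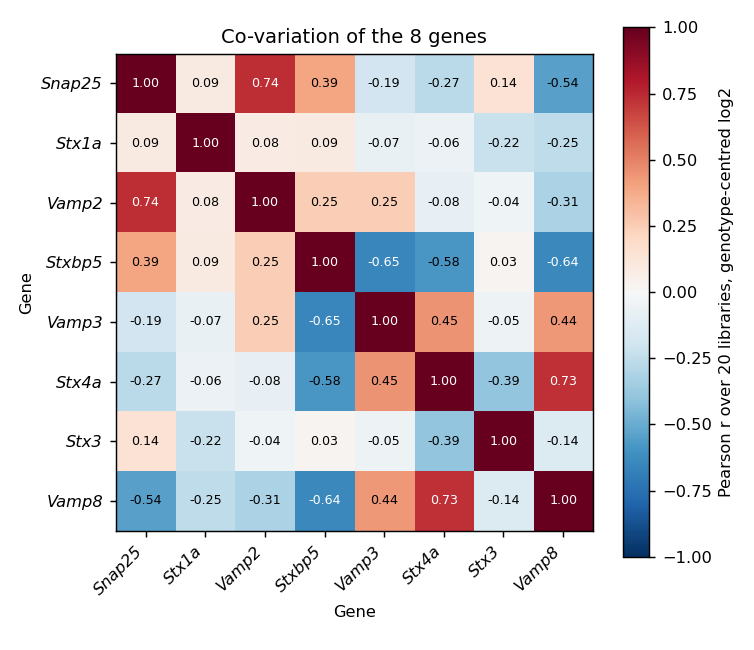
Pearson r between the log2 levels of the 8 genes over 20 libraries, centred on each genotype's mean. Snap25 with Vamp2 (0.74) and Stx4a with Vamp8 (0.73) are the strongest positive pairs, and Stxbp5 is negative with Vamp3, Vamp8 and Stx4a.

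The genes whose pattern over the 20 libraries was most like that of each of the 8 were ranked by Pearson r among 12362 genes, after centring on each genotype's mean. For Vamp2 they were Nkx2-2 (r = 0.91), an islet transcription factor, Cul7 (0.90) and Fbxo21 (0.89). For Snap25 they were Gnaz (0.88), a G protein alpha subunit, Hap1 (0.86) and Celf4 (0.85). For Stx1a they were Hps1 (0.81), Pigo (0.73) and Wnk4 (0.70). For Stxbp5 they were Zfp398 (0.93), Tpr (0.92) and Larp4b (0.90). Vamp3 was most like Gpx3 (0.86), a secreted glutathione peroxidase, Gins4 (0.81) and Taldo1 (0.78). Stx3 was most like Mier3 (0.82), Pde4d (0.82) and Pcyt1a (0.78). Stx4a was most like Ubxn1 (0.90), Fars2 (0.90) and Sem1 (0.89). For Vamp8 all 3 were processed pseudogenes, Gm9385 (0.96), Rpl10a-ps1 (0.95) and Gm7536 (0.95), whose counts are uncertain because near-identical copies exist. The 100 genes most like each gene also differed in length. Their median exon length was 0.864 kb for Vamp8 and 1.61 kb for Stx4a, against 7.01 kb for Snap25, 11.2 kb for Stxbp5 and 4.51 kb over all genes compared.

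Other genes of the SNARE pathway gave no call either. The 5 lists held 61 genes, of which 58 were tested, and limma, edgeR and DESeq2 each called 0. Unadjusted p was under 0.05 for 6 genes with limma, for 6 with edgeR and for 8 with DESeq2, and over all genes for 8.94%, 8.82% and 9.80% in the same order, so the share in the lists was near the background. Log2 fold changes were positive for 25 and negative for 33, with a median of −0.03. The list of tomosyns and other syntaxin-binding proteins had 10 of 13 negative, and the SNAREs of endosome, Golgi and ER had 10 of 16 positive. Of the other plasma membrane syntaxins and SNAPs, 6 of 7 were negative, of the other vesicle SNAREs 4 of 5 were positive, and of the priming, clamping and disassembly factors 10 of 17 were negative. These splits moved with the scaling, since the other vesicle SNAREs had 3 of 5 positive with TMM and 2 of 5 with quantile normalization. Scaled to the total without acinar genes, 51 of the 58 were negative, with a median of −0.25 against −0.22 over all genes.

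Stxbp5l, the second tomosyn gene, averaged 541 ± 154 in knockout and 878 ± 326 in WT libraries (normalized read count, SD, n = 10 each). The log2 fold change of −0.62 (SE 0.23) had an adjusted p of 0.424 (limma), and all 10 knockout libraries lay below the WT mean. Cadps, a priming factor of dense-core granules, averaged 3941 ± 873 in knockout and 4921 ± 1187 in WT libraries, and the log2 fold change was −0.32 (limma, adjusted p = 0.582).

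Bnip1, a SNARE of the endoplasmic reticulum, averaged 1469 ± 252 in knockout and 1080 ± 316 in WT libraries, and the log2 fold change was 0.48 with an SE of 0.15 (limma, adjusted p = 0.292). Vti1b, an endosomal SNARE, averaged 6097 ± 1369 in knockout and 4946 ± 600 in WT libraries, and the log2 fold change was 0.28 (limma, adjusted p = 0.518). Stx16 of the Golgi averaged 2499 ± 821 in knockout and 3233 ± 759 in WT libraries, and the log2 fold change was −0.39 (limma, adjusted p = 0.483), and Llgl1, a relative of tomosyn, 894 ± 158 in knockout and 1032 ± 76.5 in WT libraries, with −0.23 (adjusted p = 0.546, limma). The 95% intervals of these 4 log2 fold changes and that of Stxbp5l exclude 0 taken singly, and none of them passed the adjustment over all genes. The most abundant genes of their lists, Use1, Snap47, Vamp4 and Baiap3, had log2 fold changes of 0.49, −0.06, 0.13 and −0.25, and Sec22b and Doc2a had −0.10 and −0.27. Stx19 was near the filter, at a mean of 11.8 in knockout and 17.7 in WT libraries, and none of these genes passed the test.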

How the data were processed

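Islet RNA of 10 P2Y14-knockout and 10 WT samples was sequenced after TruSeq RNA v2 preparation, per the labels' protocols, a kit that does not mark strand. The values the authors deposited are a signal unit, gene read counts normalized with DESeq, per the file's name. Tools listed in the submitters' processing notes are Bowtie 0.9.9, TopHat 1.3.3, DESeq 1.16.0, Cufflinks 1.3.0 and FastQC, and the build is mm9. For the read counter, its strand setting and the annotation, nothing is given in the sources used here. Division by each column's step returned whole reads for 100% of values (tolerance 0.05 reads), and these gave the depths and the reads for edgeR 4.0.16 and DESeq2 1.42.0. The 90 same-group pairs differed beyond sampling noise (lowest chi-square per degree of freedom 76.7).

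The main test was limma 3.58.1 (R 4.3.3, mean trend) on log2(value + 1) for genes with a mean of at least 10, which understates changes of low genes, with Benjamini-Hochberg adjustment over 17482 genes at 0.05. Ratios and relations were tested with 100000 two-sided permutations (scipy 1.17.1). Names and lengths came from GENCODE M21, which named 23950 identifiers; copies were searched with BLAST+ 2.17.0. WT columns are numbered 11 to 20 and the labels 1 to 10, so WT libraries have no replicate number of their own. The fit was also tested on simulated counts. The members and lists were chosen with earlier results of these data known. Other genes named were the 2 with the smallest p and the most abundant 1 of each list, those with an unadjusted p under 0.05, which were added after their values were seen, and the 3 most alike to each gene. Marker genes are given as list sums. The table held 191 of 195 listed genes; the rest were not analysed here, and some genes under these rules are not reported here. Alternatives were pseudocounts of 0.5 and 10, other filters, TMM, quantile and acinar-free scaling, edgeR, DESeq2, covariates (acinar share, Xist, gene-length index) and left-out libraries.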

Additional observations from a re-analysis of the deposited data

Results flagged for a closer look

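Each of 28 groups of 10 libraries was examined for a lowest or highest library whose gap to the nearest other library exceeded 0.466 of the group's range, which chance gives in about 1 in 20 groups, and 3 groups held one. Vamp2 in WT library 20 was 4604 normalized read counts, against 6601 in the nearest other WT library, a gap of 0.485 of the range. The same library had the lowest Snap25 count of all, 1229, and the highest WT sums of duct (63793) and endothelial markers (72744). Vamp3 in knockout replicate 6 was 1146, against 787 in the nearest other knockout library, a gap of 0.555 of the range. That library had an acinar share of 22.0% and the lowest knockout sum of Schwann cell and neuron markers, 2462. Stx4a in knockout replicate 10 was 3727, against 2642 in the nearest other knockout library, a gap of 0.606 of the range. That library had the highest gene-length index, 0.74, an acinar share of 22.1%, and the highest knockout sums of duct (78529), macrophage (26147), endothelial (103343) and mesenchymal markers (55893). The part of these values in the 3 levels was not tested. Without the 3 libraries together, a setting added after the data were seen, 0 of the 8 genes were called, and Vamp2 had a log2 fold change of −0.19 (limma, unadjusted p = 0.0354, adjusted p = 0.498). The 3 libraries were picked by their values of Vamp2, Vamp3 and Stx4a, so fits of these genes without them are not independent of that choice.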

How the results depend on the processing

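None of the 8 genes was called under any of 13 alternatives or of 20 fits that each left out 1 library, in which the lowest adjusted p was 0.454 and 0.384. Signs of small values turned. With the gene-length index as a covariate, the log2 fold change was 0.067 for Snap25, 0.10 for Stxbp5 and −0.064 for Vamp3. Without the 3 libraries that stand apart, it was 0.014 for Stxbp5 and −0.12 for Vamp3. Vamp3 had −0.0053 with TMM, −0.0048 with quantile normalization and −0.21 with the total without acinar genes, where Stx3 had −0.20. That scaling moved the median of all genes to −0.22, against which those values are to be read, and its 35 calls were 9 higher and 26 lower, against 28 and 21 on the deposited scale. Leaving out 1 library gave −0.15 to 0.024 for Snap25, −0.073 to 0.042 for Stxbp5, −0.075 to 0.059 for Vamp3 and −0.034 to 0.052 for Stx3, and kept the sign of the other 4 genes, at −0.34 to −0.22 for Stx1a, −0.20 (without WT library 20) to −0.10 for Vamp2, −0.15 (without knockout replicate 10) to −0.02 (without WT library 14) for Stx4a and 0.14 (without knockout replicate 10) to 0.34 for Vamp8. The unadjusted p of Stx1a was under 0.05 in 6 of the 20 fits, the lowest being 0.0216, and that of Vamp2 in 1, at 0.0189 without WT library 20. All 4 ratios kept their sign and none was called.

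Under the total without acinar genes, r with the acinar share was −0.71 for Snap25, −0.49 for Stx1a, −0.69 for Vamp2, −0.60 for Stxbp5, −0.70 for Vamp3, −0.51 for Stx4a, −0.76 for Stx3 and 0.12 for Vamp8. The relation of Stx1a, Vamp3 and Stx4a with acinar RNA thus changed sign, and Vamp8 lost its call, as it did at r = 0.43 without the 2 libraries farthest from the median share. For all genes of the set but Vamp8, permutation adjusted p on that scale was from 0.0014 (Snap25, Vamp3 and Stx3) to 0.032 (Stx1a). These are not read as calls, because the scaling divides all genes of a library by the same factor. A factor that rises with the acinar share lowers r for any gene. Normalized counts summed over all genes, acinar genes included, were lowest in knockout replicate 5 (53115364, acinar share 4.74%). They were highest in knockout replicate 10 (155642301, acinar share 22.1%). The r of genes outside the set was not examined on that scale. How much of each change in r comes from the shared factor was not tested. Calls over all genes numbered 49, with 29 at a mean of at least 100, 85 with the acinar share, 78 with the gene-length index, 90 without the 3 libraries, 137 with DESeq2, 43 with edgeR, and 27 to 73 leaving out 1 library. No paired analysis was possible because WT columns do not carry the replicate numbers of the labels. Deep counts bound counting error, but with 10 libraries a group the spread between libraries limits what fold change can be seen, and intervals of the 8 genes reached from 0.675 to 1.55.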

Other observations

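Stx1a followed the gene-length index in opposite directions in the genotypes, with r = −0.75 (rho = −0.73) over 10 knockout and r = 0.67 (rho = 0.54) over 10 WT libraries. Its pairs with Stx4a (r = −0.68 in knockout, 0.71 in WT) and with Stxbp5 (r = 0.66 in knockout, −0.76 in WT) also had opposite signs. These were seen among many relations, and the difference between the genotypes was not tested.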
